A study of Mus musculus with 6 samples.

Results

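The genes described here encode insulin-like growth factor 1 (Igf1), the receptors for IGF1 and insulin (Igf1r, Insr), the receptor that clears IGF2 (Igf2r), the insulin receptor substrates Irs1 and Irs2, and the IGF-binding proteins Igfbp2, Igfbp3, Igfbp4 and Igfbp5. The 10 genes were chosen with earlier results of these data known, and their probe sets by gene symbol. Every probe set of the array annotated to exactly 1 of these 10 symbols was taken. That gave 27 probe sets for 10 of the 18193 genes named on the array. Expression was measured in retinas dissected at birth from wildtype mice and from mice lacking both copies of the cyclin D1 gene Ccnd1 (cyclin D1 -/-). There were 3 numbered pools per genotype, each measured on its own Affymetrix array. The comparison was made to ask whether cyclin D1 raises or lowers transcription of the genes it binds, and the binding data were not analysed here. Neither the strain, the number of animals in a pool nor the sharing of litters is given in the sources used here. The p-values therefore measure the spread between these pools, which may be technical. The whole animal lacked cyclin D1 per its genotype label, so cells of any type in the dissected tissue lack it too.

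Insulin and the IGFs bind receptor tyrosine kinases, which phosphorylate IRS proteins; these recruit PI3-kinase and turn on AKT and mTOR, which promote growth and survival and restrain FoxO transcription factors. IGF-binding proteins hold IGFs outside the cell and can block or prolong their action. Growth factor signals through these receptors raise cyclin D1 in many cell types. In the retina, IGF signalling is known for its part in the growth of progenitors and of blood vessels.

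Signal is given in normalised array units, and differences are knockout minus wildtype on the scale log2(signal + 16), with limma adjusted p-values and a threshold of 0.1, the false discovery rate the submitters used. The brightest probe set stood for each gene. The dimmest 40% of genes were not tested, which removed Irs2 and Igfbp3 and left 8 of the 10 genes among 10916 tested. A second fit without that filter covered all 34945 probe sets with 1 gene symbol. In a pool of whole retinas, more cells of a type and more RNA per cell cannot be told apart. Levels are not compared between genes, because probe sets differ in how brightly they read.

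The arrays were checked before these genes were read. The median deposited signal ran from 40.6 to 50.5 units. Ccnd1 fell 12-fold (log2 difference -3.59, SE 0.08, n = 3 pools per genotype, limma adjusted p = 5.78e-07), and every pool lay on the side its label names. Of 12 retinal progenitor markers 11 had a named probe set, and all 11 were bright enough to be tested. Pools 1 and 2 of a genotype were more alike (SD of the log2 difference 0.22 in wildtype and 0.21 in knockout) than any other pair of arrays (0.28 to 0.52), and whether they share tissue or RNA is not known. Bacterial hybridisation controls (BioB and BioC) split the arrays into a brighter set (wildtype pool 3, knockout pools 1 and 2; 961 to 1201 units) and a dimmer set (wildtype pools 1 and 2, knockout pool 3; 771 to 854 units). Differences are also given within each set, where a single array of one genotype stands against a pair from the other.

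Irs1 and Igfbp4 were higher in the knockout retinas, and none of the 8 tested genes was lower by the test. Irs1 rose 1.42-fold and Igfbp4 1.71-fold. Igf1 had a positive difference in all 4 of its probe sets, of which 1 passed the test. The difference of Igf1r was below 0 in 4 of its 5 probe sets and 0.00 in the other, and none passed. The remaining genes, Insr, Igf2r, Irs2, Igfbp2, Igfbp3 and Igfbp5, did not pass. Across all tested genes 4.66% were called, 2.03% higher and 2.63% lower. The knockout pools all lay above the wildtype pools in 4 of the 8 genes and below them in 1, beside 10.5% and 9.48% of all tested genes. Over the 27 probe sets these numbers were 14 and 2, beside 7.41% and 7.23% of all probe sets. Of the 14, Igfbp4 gave 5 and Igf1 gave 4, and probe sets of 1 gene are not separate evidence. The median difference of all 10 genes, without the filter, was 0.26, beside 0.02 for the 18193 named genes. Because the 10 genes were chosen with earlier results of these data known, these contrasts are descriptions and not tests of the set.

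To show the promoters of the 2 genes that passed, the 250 bases before the transcript start are printed 5′ to 3′ along the gene, from RefSeq on build GRCm38.p6. The first lies at chr1:82291440-82291689 on the minus strand and the second at chr11:99040994-99041243 on the plus strand. Capitals mark matches, on either strand, to the letters searched.
Irs1: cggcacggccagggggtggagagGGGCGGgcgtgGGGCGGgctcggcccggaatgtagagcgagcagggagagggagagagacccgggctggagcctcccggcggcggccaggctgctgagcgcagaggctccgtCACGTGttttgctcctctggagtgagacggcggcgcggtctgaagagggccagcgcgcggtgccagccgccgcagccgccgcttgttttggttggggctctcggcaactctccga
Igfbp4: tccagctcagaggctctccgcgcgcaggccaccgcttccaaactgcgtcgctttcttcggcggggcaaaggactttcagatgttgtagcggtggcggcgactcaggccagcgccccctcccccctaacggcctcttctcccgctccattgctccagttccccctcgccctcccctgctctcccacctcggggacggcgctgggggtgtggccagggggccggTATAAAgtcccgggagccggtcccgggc
The letters searched were GGGCGG (the GC box), CACGTG (an E-box), TATAAA (the TATA box), TTTNNCGC (an E2F-like site) and TGTTTAC (a FoxO-like site). The Irs1 window held 2 GC boxes, which start 227 and 216 bases before the transcript start, and 1 E-box at 115 bases. The Igfbp4 window held only a TATA box, at 28 bases. Of 32851 windows of this length in the table, 32.7% held a GC box, 6.02% this E-box, 12.4% a TATA box, 4.28% the E2F-like letters and 3.17% the FoxO-like letters. RefSeq windows matched 9 of the 10 genes by symbol. The E-box was also found for Igf2r, Irs2 and Igfbp2, and the E2F-like letters for Irs2. These are matches of letters, not measured binding sites.

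**Figure D1:**
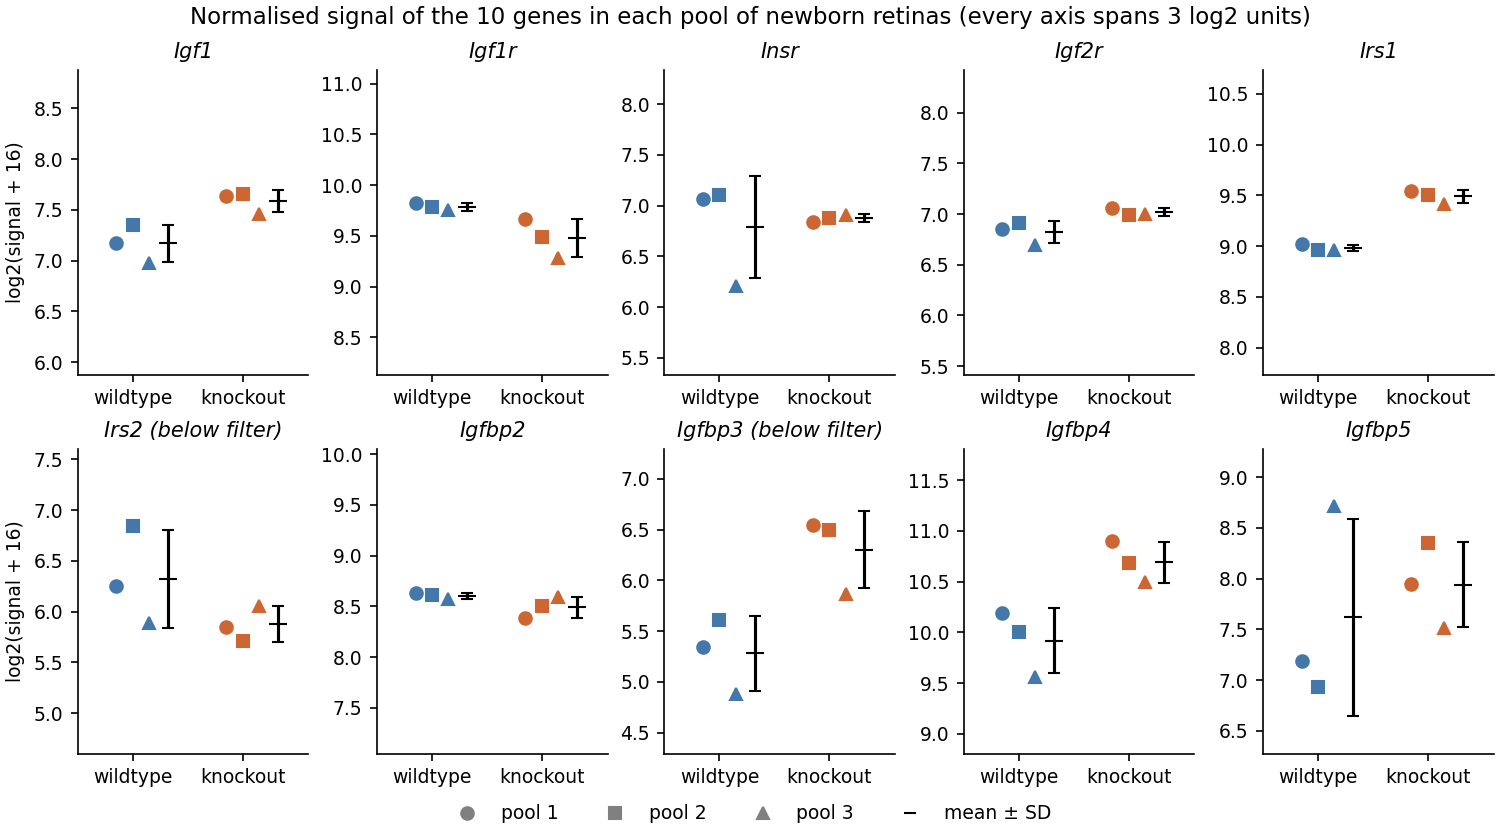
Each panel plots log2(signal + 16) of 1 gene's brightest probe set in the 3 wildtype and 3 knockout pools, with the mean and SD (n = 3) beside the points. The knockout points lie above the wildtype points for Igf1, Igf2r, Irs1, Igfbp3 and Igfbp4 and below them for Igf1r, and wildtype pool 3 stands apart for Insr and Igfbp5.

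Igf1 encodes the ligand that activates the IGF1 receptor. Its probe set 1434413_at read 103, 84.0 and 96.1 units in the wildtype pools and 197, 201 and 200 units in the knockout pools. The 3 knockout pools were nearly equal and all lay well above the wildtype pools. The log2 difference was 0.97 (SE 0.12, 1.96-fold, limma adjusted p = 0.0162 over all probe sets, n = 3), and within the array sets it was 0.94 and 0.99, brighter controls first. The brightest probe set, 1437401_at, which stood for the gene, read 128, 147 and 111 units in wildtype and 184, 186 and 161 units in knockout pools. Here the groups did not overlap either, but the difference was smaller, 0.42 with a 95% confidence interval of 0.10 to 0.75 (limma adjusted p = 0.215). Within the array sets it was 0.67 and 0.20, brighter controls first, and knockout pool 3 was the lowest of the knockouts. The 2 dimmer probe sets, 1419519_at and 1452014_a_at, differed by 0.48 and 0.33 (limma adjusted p = 0.427 and 0.607). In all 4 the knockout pools lay above every wildtype pool, as they did in 7.41% of all probe sets; the difference between the probe sets was not tested. Probe set 1434413_at lost its call without knockout pool 1 or 2 (limma adjusted p = 0.142 and 0.153), under a replicate block (0.119) and once the 2 similar pools of a genotype were averaged (0.414), although its difference was 0.90 to 1.08 over 11 alternatives, whose adjusted p ran from 0.0117 to 0.414.

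The receptors did not pass the test in either direction. Igf1r, the receptor tyrosine kinase for IGF1 and IGF2, read 890, 861 and 847 units in wildtype and 796, 705 and 607 units in knockout pools in its brightest probe set, 1452982_at. All knockout pools were below all wildtype pools, and the wildtype pools were close together. That held after normalisation only. As deposited the groups overlapped, at 855, 761 and 792 units in wildtype and 831, 833 and 609 units in knockout pools. The difference was then -0.09 (limma adjusted p = 0.787), and -0.16 with arrays centred on their medians (0.825). With the normalised values the log2 difference was -0.30 (SE 0.11, 95% confidence interval -0.55 to -0.06, limma adjusted p = 0.24). It was -0.17 and -0.52 within the array sets, brighter controls first. Probe sets 1428967_at, 1446303_at and 1452108_at differed by -0.35, -0.21 and -0.40, the last of them at a signal of 3.20 to 19.0 units. The fifth probe set, 1426565_at, followed no genotype: it read 256, 236 and 683 units in wildtype and 227, 328 and 556 units in knockout pools. Pool 3 was the highest of each genotype there, and the mean difference of 0.00 had a wide interval, -1.01 to 1.01.

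Insr, the insulin receptor, had a difference of 0.09 in probe set 1434446_at, with an interval of -0.46 to 0.64. Wildtype pool 3 read 58.0 units, against 117 and 121 in the other wildtype pools and 98.7 to 105 in the knockout pools. In the next probe set, 1450225_at, wildtype pool 3 was instead the brightest, at 110 units against 70.7 and 76.1 in wildtype pools 1 and 2, and the difference was -0.01. The dim probe set 1421380_at, at 3.99 to 18.3 units, differed by 0.37 (limma adjusted p = 0.52), with every knockout pool above every wildtype pool. Igf2r, which takes up IGF2 for breakdown in lysosomes and is an imprinted gene, read 99.5, 104 and 87.1 units in wildtype and 118, 111 and 112 units in knockout pools. Its knockout pools lay just above the wildtype pools, with a difference of 0.20 and an interval of -0.09 to 0.50 (limma adjusted p = 0.624). The other Igf2r probe set differed by 0.30, with overlapping groups. The intervals of Insr and Igf2r include 0 but reach 0.64 and 0.50, so these data do not show that the levels are alike between genotypes.

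**Figure D2:**
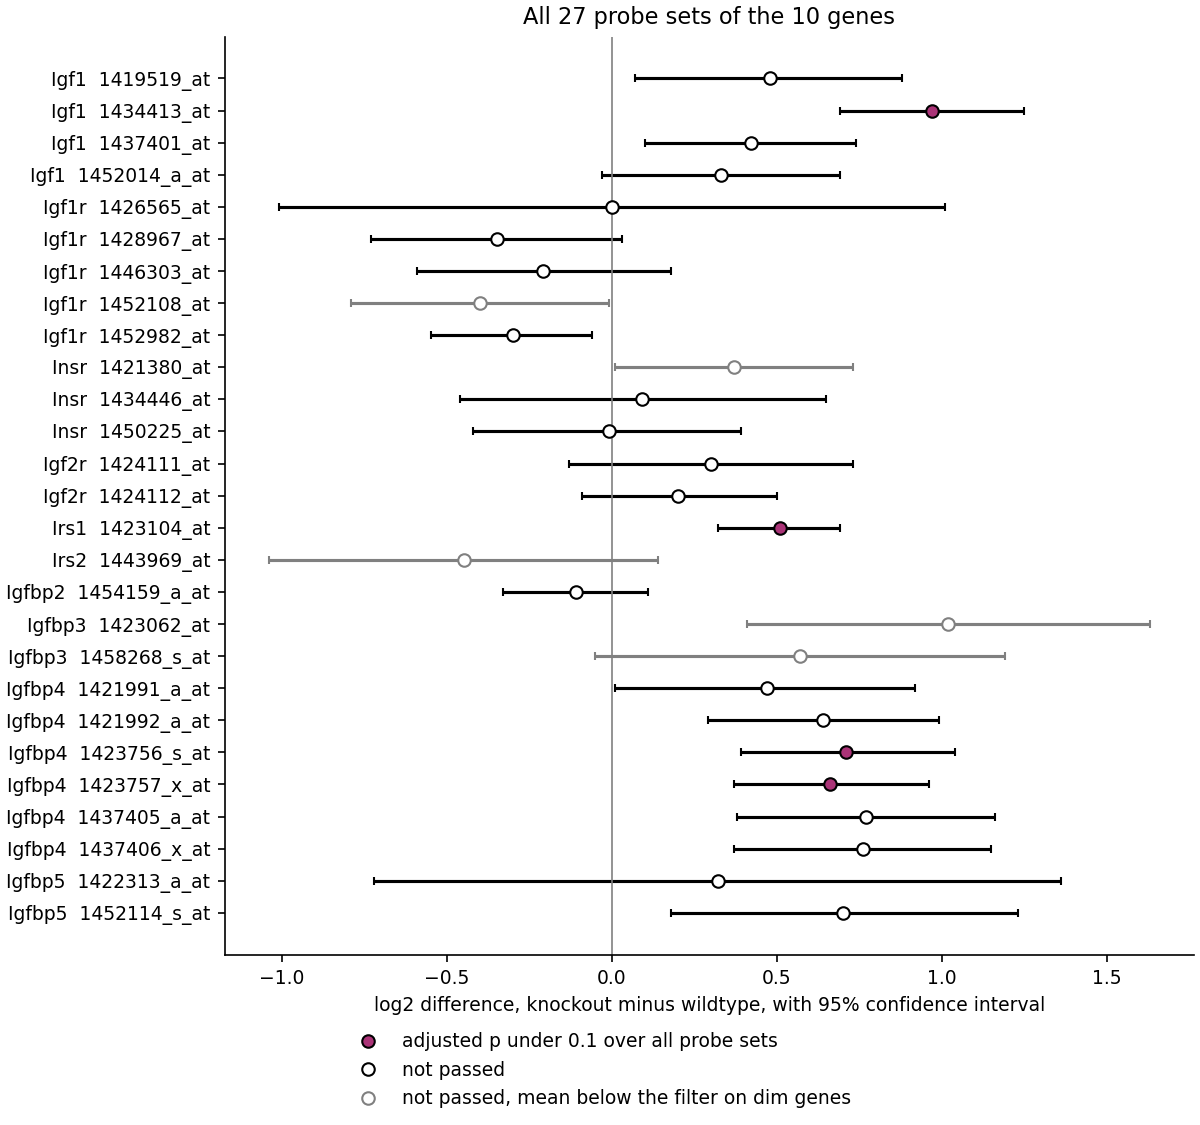
Each row is 1 of the 27 probe sets, placed at its log2 difference (knockout minus wildtype) with the 95% confidence interval from limma; filled points passed an adjusted p of 0.1 over all probe sets, and grey points are dim. The 4 filled points belong to Igf1, Irs1 and Igfbp4, all 6 Igfbp4 points lie right of 0, and 4 of 5 Igf1r points lie left of it.

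Irs1, the docking protein that carries the signal of the activated receptors to PI3-kinase, rose in the knockout retinas. Its only probe set read 502, 481 and 484 units in wildtype and 729, 708 and 670 units in knockout pools. The pools of each genotype were tightly grouped, and the gap between genotypes was larger than the spread within them. On the log2 scale the level was 8.98 ± 0.03 (SD, n = 3) in wildtype and 9.49 ± 0.06 in knockout, a difference of 0.51 (SE 0.08, limma adjusted p = 0.0162). Within the array sets the difference was 0.56 and 0.44, brighter controls first. The call ended without knockout pool 1 or 2 (limma adjusted p = 0.11 and 0.119), under the submitters' error model (0.139) and with averaged pools (0.37, the largest of 21 alternatives, whose smallest was 0.000633), but the difference was 0.47 to 0.70 throughout. In the fit over all probe sets it also passed (limma adjusted p = 0.038), though not without wildtype pool 1 or 2 (0.176 and 0.166) or knockout pool 1 or 2 (0.266 and 0.268), under a replicate block (0.154) or with averaged pools (0.704). Irs2, its close relative, was too dim to be tested. It read 59.9, 98.6 and 43.1 units in wildtype and 41.8, 36.3 and 50.9 units in knockout pools, which overlap, and without the filter its difference was -0.45 (95% confidence interval -1.04 to 0.14, limma adjusted p = 0.666). Whether Irs1 and Irs2 differ in their response was not tested.

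The tested genes whose levels over the 6 arrays were closest to those of Irs1, each centred on its own mean, were Stmn2, a regulator of microtubules in growing neurons, Glb1l2, and Gpc4, a heparan sulphate proteoglycan of the cell surface. Their root mean square differences from Irs1 were 0.0257, 0.0357 and 0.0387 log2 units, where the median gene stood at 0.314. This centring keeps the genotype difference, so genes with a similar difference lie close.

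Igfbp4, a secreted protein that binds IGFs and mostly inhibits them, rose in the knockout retinas, and all 6 of its probe sets had a positive difference. The brightest, 1437405_a_at, read 1154, 1011 and 740 units in wildtype and 1891, 1619 and 1430 units in knockout pools. The genotypes did not overlap, but both spread widely, and pool 3 was the lowest of each genotype. The level was 9.92 ± 0.32 (SD, n = 3) in wildtype and 10.69 ± 0.20 in knockout, a log2 difference of 0.77 (SE 0.17, limma adjusted p = 0.0553). The 6 probe sets differed by 0.47 to 0.77, and in 5 the groups did not overlap. In the fit over all probe sets 1423756_s_at and 1423757_x_at passed (limma adjusted p = 0.0836 and 0.0767). That fit called 0.61% of probe sets higher and 0.899% lower. The brightest, 1437405_a_at, did not pass in it (limma adjusted p = 0.117), nor did 1437406_x_at (0.117), 1421992_a_at (0.139) or 1421991_a_at (0.525). The 2 that passed lost their call on removal of pool 1 or pool 2 of either genotype (0.178 to 0.391) and with averaged pools (0.673 and 0.614). Probe set 1423757_x_at lost it also without knockout pool 3 (0.171), and 1423756_s_at with the array set as a block (0.103). The 6 probe sets report on 1 gene in the same RNA, so they are not separate evidence. Within the array sets the difference was 1.22 and 0.40, brighter controls first. Of 21 alternatives the call ended in 7, among them those without wildtype pool 2 (limma adjusted p = 0.12) or without knockout pool 1 or 2 (0.233 and 0.202) and with averaged pools (0.322, the largest of the 21, whose smallest was 0.00346); the difference was 0.58 to 0.94 in all.

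Igfbp3, the main carrier of IGFs in blood, was too dim to be tested among genes. Its brighter probe set read 24.6, 33.0 and 13.5 units in wildtype and 77.5, 74.2 and 42.3 units in knockout pools. Every knockout pool was above every wildtype pool, with pool 3 the lowest of each genotype. Without the filter the difference was 1.02 (SE 0.26, 95% confidence interval 0.42 to 1.63, limma adjusted p = 0.155), and it was 1.64 and 0.39 within the array sets. The second probe set, 1458268_s_at, differed by 0.57 with overlapping groups.

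Igfbp5, a binding protein that also attaches to extracellular matrix, gave different pictures in its 2 probe sets. Probe set 1452114_s_at read 120, 146 and 75.5 units in wildtype and 214, 206 and 155 units in knockout pools. These groups did not overlap, and the order of the pools was like that of Igfbp3, with a difference of 0.70 (SE 0.23, limma adjusted p = 0.333). The brighter probe set 1422313_a_at read 130, 106 and 407 units in wildtype and 231, 311 and 166 units in knockout pools, so that wildtype pool 3 was the highest of all 6. Its difference was 0.32 (SE 0.44, limma adjusted p = 0.896), and -0.57 and 0.45 within the array sets. Without wildtype pool 3 the gene was called, with a difference of 0.89 (limma adjusted p = 0.0495), in a fit that called 17.8% of all tested genes; without wildtype pool 2 its difference was -0.02 (limma adjusted p = 0.996). Igfbp2, an IGF-binding protein of neural tissue, read 380, 376 and 364 units in wildtype and 319, 346 and 371 units in knockout pools, a difference of -0.11 (95% confidence interval -0.33 to 0.11, limma adjusted p = 0.787) that turned to 0.04 with values as deposited.

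Markers of other cell types were read beside the binding proteins. Of 12 pericyte and mesenchyme markers 11 had a named probe set and 6 were tested. All 6 had a positive difference, as had 5930 of the 10916 tested genes. Of the 6, 1 was called higher, the collagen gene Col1a1 (2.25, SE 0.58, limma adjusted p = 0.0997), beside 2.03% of all tested genes. The median of the 6 was 1.16, and 1.92 and 0.33 within the array sets, brighter controls first; over all 11, without the filter, it was 0.60. Acta2, the actin of smooth muscle and of some pericytes, differed by 0.13 (limma adjusted p = 0.855). Their summed signal was 591 to 727 units in wildtype pools, 850 units in knockout pool 3, and 2332 and 2614 units in knockout pools 1 and 2. Knockout pools 1 and 2 were thus high and knockout pool 3 close to wildtype, the pools in which Igfbp3, Igfbp4 and probe set 1452114_s_at of Igfbp5 were also highest and lowest among the knockouts. Irs1, and Igf2 and Igfbp7 described below, were lowest in knockout pool 3 too, so this order was not particular to those binding proteins. The collagen genes Col3a1, Col1a2 and Col1a1 were the brightest of the 11 in knockout pools 1 and 2, so they weigh most in the sum. They were lowest among the knockouts in pool 3, as were Rgs5, Dcn, Lum and Foxc1. Acta2 and Cspg4 were instead highest there, Kcnj8 was lowest in knockout pool 1, and Pdgfrb was nearly level (5.67, 5.71 and 5.64). None of the 11 was at the floor of the scale, but Pdgfrb, Kcnj8, Cspg4, Lum and Foxc1 were below the filter. Knockout pool 3, where this sum was lowest among the knockouts, was set against wildtype pools 1 and 2. There the Igfbp4 difference was 0.40 and that of Irs1 0.44. That of Igf1 was 0.99 in probe set 1434413_at, 0.20 in the brightest, 1437401_at, and 0.64 and 0.51 in 1419519_at and 1452014_a_at. The closest genes to Igfbp4 over the 6 arrays were Id1, a bHLH inhibitor, Rgs5, a pericyte marker that is itself in the list, and Nxn. Their root mean square differences were 0.0581, 0.0851 and 0.0916 log2 units, against a median gene at 0.473. Of these Id1 passed the test (limma adjusted p = 0.0689), and Rgs5 and Nxn did not (0.101 and 0.202). As for Irs1, closeness includes the genotype difference, so it does not show a shared cell type.

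The counts of markers called in this paragraph stand beside 2.03% of all tested genes called higher and 2.63% called lower. Lens markers had 13 of 17 tested members higher and none lower. Their summed signal was 3816 to 10277 units in wildtype and 28521 to 73255 units in knockout pools, with knockout pool 3 the highest. Igfbp4, Igfbp3 and Igfbp5 were lowest among knockouts in that pool, as were Irs1, Igf2 and Igfbp7. Ciliary margin markers summed to 1964 to 2133 units in wildtype and 4635 to 4658 units in knockout pools, with 2 of 8 tested members higher (Wfdc1 and Col9a1), none lower, and a median difference of 0.31. Col9a1 was the brightest member of that sum in both genotypes and so weighs most in it. It went from 9.42 to 11.51 on the log2 scale. Wfdc1 differed by 1.14, Gja1 by 0.72, and the other tested members by 0.09 to 0.32. Retinal progenitor markers summed to 7009 to 7437 units in wildtype and 5757 to 6077 units in knockout pools, with 3 of 11 lower (Sox2, Lhx2 and Hes5) and 1 higher (Fgf15). Endothelial markers summed to 1746 to 1854 and 1718 to 1768 units, with none of 5 tested called, and microglial markers to 715 to 795 and 708 to 761 units, with none of 4 called. For pigment epithelium the sums were 1249 to 1711 and 1117 to 1176 units, with Pmel lower among 7, for astrocytes 232 to 291 and 313 to 327 units, with none of 3 called, and for red blood cells 283 to 319 and 228 to 238 units, with the 1 tested member not called. The part of these cell types in the differences of Irs1, Igf1 and the binding proteins was not tested.

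**Figure D3:**
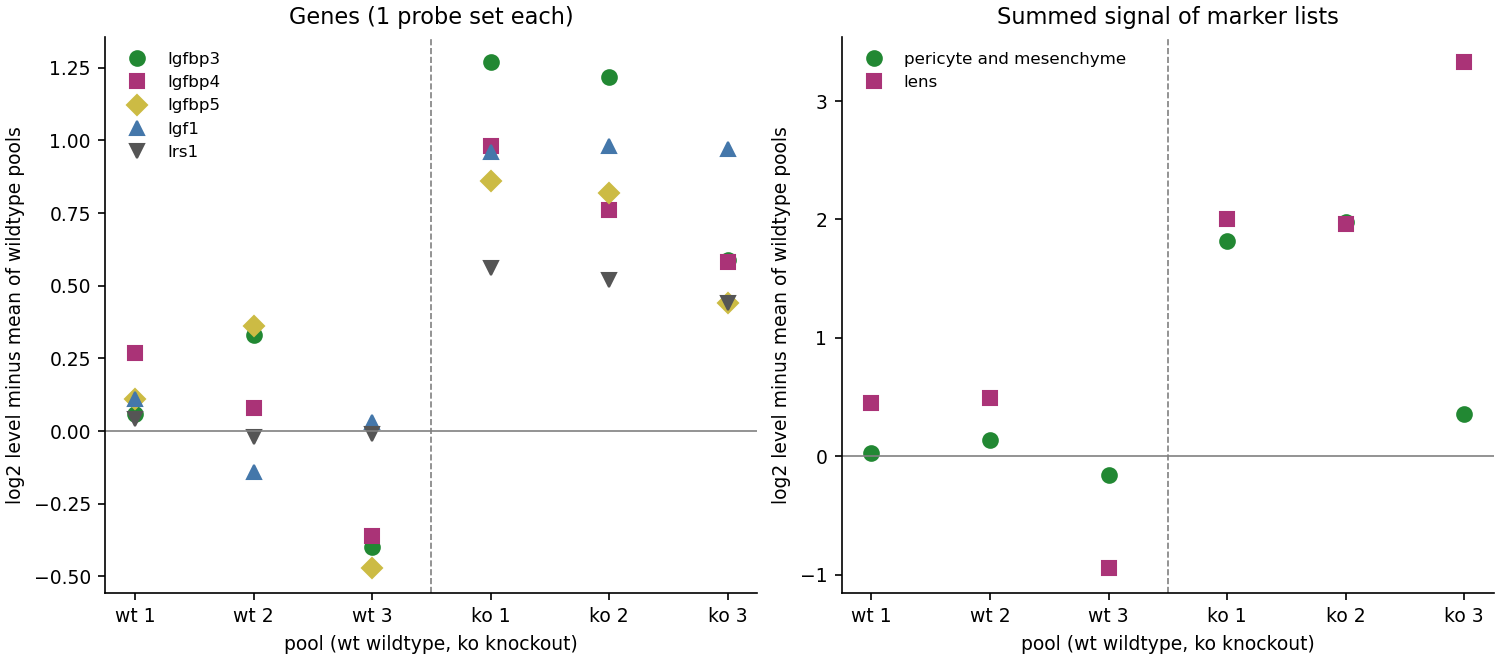
Left, the log2 level of the probe set with the largest difference of Igfbp3 (1423062_at), Igfbp4 (1437405_a_at), Igfbp5 (1452114_s_at), Igf1 (1434413_at) and Irs1 in the 6 pools, minus the mean of the 3 wildtype pools; right, the same for the summed signal of the pericyte and mesenchyme markers and of the lens markers. The binding proteins and the mesenchyme sum are lowest among the knockouts in pool 3 (0.44 to 0.59 and 0.36), and the lens sum is highest there (3.33). Irs1 is also lowest there (0.44, against 0.56 and 0.52 in knockout pools 1 and 2). Igf1 probe set 1434413_at is level over the knockout pools (0.96 to 0.98). The brightest Igf1 probe set, 1437401_at, is not drawn and is lowest among the knockouts in pool 3.

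The wider pathway was read from 4 lists holding 76 further genes, of which 71 had a named probe set and 58 were tested. Of the 58, 4 rose and none fell, beside 2.03% and 2.63% of all tested genes. With the array set as a block 8 were higher (Htra1, Ctsd, Sesn1 and Ddit4 added), where 5.47% of all tested genes were. Without wildtype pool 3 it was 11 (beside 7.92%), without knockout pool 2 it was 2 (Igf2 and Igfbp7, beside 0.632%), and with averaged pools 1 (Igf2, beside 0.156%). Igf2, the main fetal IGF ligand and an imprinted gene, read 305, 334 and 270 units in wildtype and 775, 764 and 660 units in knockout pools. The genotypes were far apart, with a difference of 1.23 (SE 0.11, 2.35-fold, limma adjusted p = 0.00177), and 1.45 and 1.01 within the array sets. Its second probe set differed by 0.47 (limma adjusted p = 0.437 over all probe sets). Igfbp7, a secreted relative of the binding proteins with low affinity for IGFs, read 251, 183 and 217 units in wildtype and 607, 497 and 441 units in knockout pools, a difference of 1.19 (SE 0.15, limma adjusted p = 0.0072). Its other 2 probe sets differed by 0.21 and -0.16, and with the mean of all 3 the difference was 0.41 and the call ended (limma adjusted p = 0.116, the largest of 21 alternatives, whose smallest was 0.000379), as it did with averaged pools (0.112). Igfbpl1, a binding-protein-like gene of the developing nervous system, differed by 0.22 (limma adjusted p = 0.819). In all, 2 of 9 tested ligand and extracellular genes were higher, with a median difference of 0.26, and Ins2, Igfbp1, Igfals, Pappa, Pappa2 and Stc1 were too dim to be tested.

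Inside the cell, 1 of 15 adaptors and receptor-proximal inhibitors and 1 of 32 genes of PI3K, AKT, mTOR and FoxO signalling were higher, beside 2.03% of all tested genes. Grb10, an adaptor that dampens insulin and IGF receptor signalling and is also imprinted, read 1058, 1072 and 1097 units in wildtype and 1309, 1335 and 1287 units in knockout pools. These pools were tightly grouped, with a small difference of 0.28 (SE 0.07, 1.21-fold, limma adjusted p = 0.0717), and 0.27 in both array sets. Its other 2 probe sets differed by 0.26 and 0.05. Its call ended in 13 of 21 alternatives, among them those without any 1 pool other than wildtype pool 3 (limma adjusted p 0.154 to 0.335), and its largest adjusted p over the alternatives was 0.742. Sesn3, a FoxO target whose product restrains mTOR complex 1, read 390, 401 and 368 units in wildtype and 557, 587 and 591 units in knockout pools, a difference of 0.56 (SE 0.09, limma adjusted p = 0.0138), and 0.61 and 0.56 within the array sets. Its second probe set differed by 0.31, and its call ended without knockout pool 2 (limma adjusted p = 0.104), under the submitters' error model and with averaged pools (0.286, the largest of 21, whose smallest was 0.000519). The 2 lists had median differences of 0.06 and 0.04. Genes of the kinase core such as Akt1 (0.23, limma adjusted p = 0.179), Pik3r1 (0.28, 0.195) and Tsc2 (-0.28, 0.363) did not pass. Neither of the 2 tested IGF2 mRNA-binding protein genes was called.

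**Figure D4:**
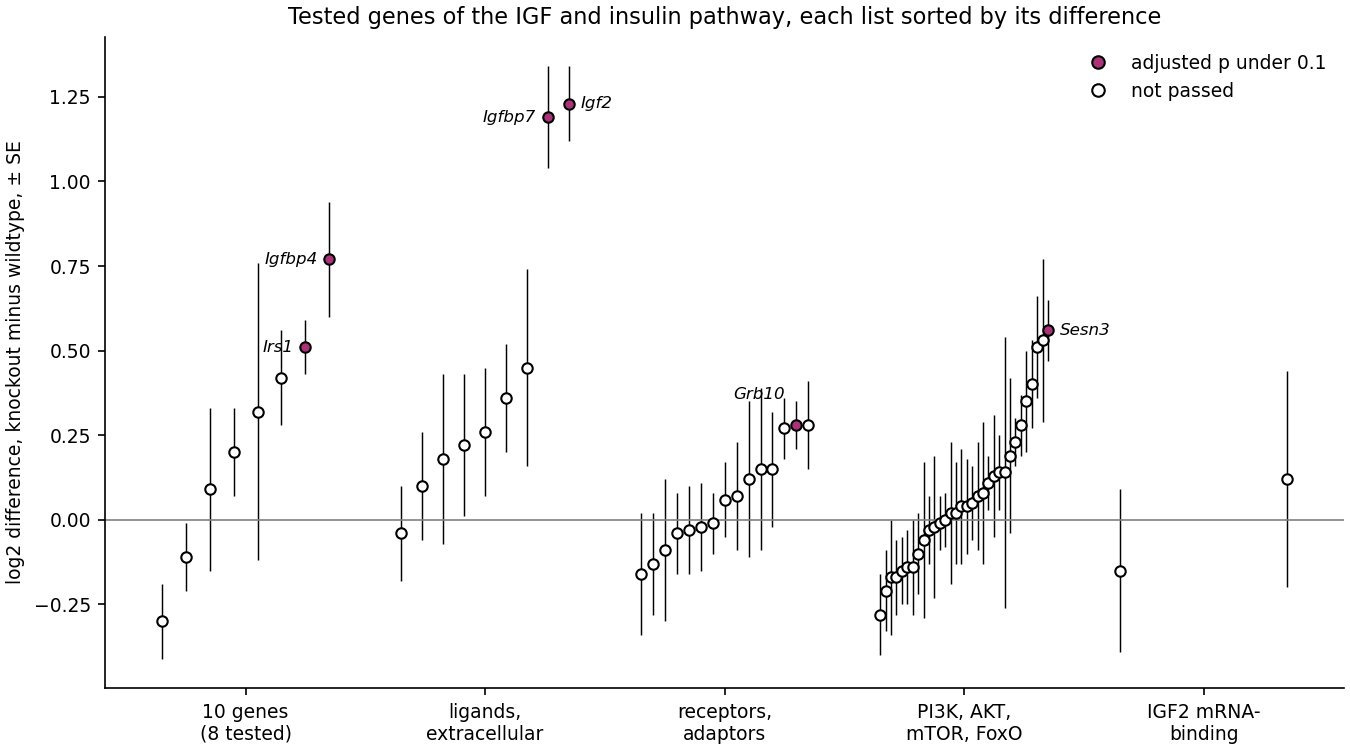
Log2 differences (knockout minus wildtype) with SE from limma for the 8 tested of the 10 genes and for 58 further pathway genes in 4 lists, sorted within each list; filled points passed an adjusted p of 0.1. Only Irs1, Igfbp4, Igf2, Igfbp7, Grb10 and Sesn3 passed, all above 0.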

How the data were processed

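Retinal RNA of 6 pools, 3 of each genotype, was read from 1 table of linear intensity values per probe set deposited by the authors. How probes were summarised and arrays scaled is not stated in any source used here. Of 45101 probe sets, 64 controls were left out, and the platform table gave 34945 a single gene symbol, 932 more than one and 9160 none. Of the 34945, 34741 were matched by gene identifier to RefSeq (GRCm38.p6) and took its symbol, whether or not it differed. No column was left unused. Median log2 intensity differed by up to 0.31 between arrays, beyond a tolerance of 0.1, so values were quantile normalised, floored at 1 and taken to log2(value + 16), which understates changes of dim genes. The brightest probe set on average stood for each gene; the lowest 40% (7277) were left out and 10916 fitted with limma 3.58.1 in R 4.3.3 (intensity trend, no covariate, two-sided, Benjamini-Hochberg over all genes); figures used matplotlib 3.10.9. Per the labels, the submitters took each gene's most changed probe set and used the NIA error model with a Bayesian 5 degrees of freedom; both were run as alternatives. Other alternatives changed the scaling, pseudocount, filter, threshold, trend, array weights, blocks and pools used. The fit was tested on simulated data.

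The 10 genes, the lists and the tests were chosen with earlier results of these data known. The text names all 10 genes, Ccnd1, every pathway gene that passed (up to 6 a list), Igf2, Grb10 and Igfbpl1, and the 3 genes closest to each called gene; the marker genes and all other pathway genes named, such as Akt1, Pik3r1, Tsc2 and Nedd4, fall outside that rule and were picked with their values in view.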

Additional observations from a re-analysis of the deposited data

How the results depend on the processing

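Over 21 alternatives the differences of Irs1, Igfbp4, Igf1, Igf2, Igfbp7, Grb10 and Sesn3 kept a positive sign, and no called difference reversed. That of Insr changed sign in 2 of 19, that of Igfbp5 in 3 of 21 and that of Igfbp2 in 1 of 21, and none was called where its sign had changed. Igfbp5 was called higher with array weights (0.018) and without wildtype pool 3 (0.0495, limma adjusted p). The 2 of the 10 genes called higher were Irs1 and Igfbp4, in a fit that called 4.66% of all tested genes. Percentages below are the shares of all tested genes called in the same setting. Irs1 alone was called without the filter on dim genes (2.16%), without an intensity trend (3.48%) and at a threshold of 0.05 (2.95%). Under the submitters' error model only Igfbp4 was called (1.91%). The probe set of largest difference gave 4 higher (Igf1 and Igfbp3 added, 5.4%). Array weights gave 4 higher and 1 lower (Igf1r), where 33.1% were called. Averaging pools 1 and 2 within a genotype, where 2 samples remain on each side, gave 0 (0.394%). Leaving out 1 pool gave 0 to 3 higher and 0 lower. The count was 0 without knockout pool 1 or 2 (1.64% and 1.65%) and 3 without wildtype pool 3 (17.8%). Without wildtype pool 2 (2.49%) it was 2, Irs1 and Igf1, whose brightest probe set then is 1434413_at. The cause was not tested.

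The 4 probe sets called higher became 7 with values as deposited and 0 with averaged pools; without 1 pool they numbered 0 to 6 (1 without wildtype pool 1 or 2, 0 without knockout pool 1 or 2), and 0 were lower in every setting run. For probe sets, averaging, blocks and leaving out pools were added after the data were seen, as were the counts of pathway genes under each alternative. Deviations of same-numbered pools from their genotype means correlated at 0.17, -0.35 and -0.48. Wildtype pool 3 was in the brighter array set and knockout pool 3 in the dimmer. These values therefore cannot show whether the numbers pair the pools. With the replicate number as a block 2 of the 10 genes were higher and 0 lower (Irs1 0.07 and Igfbp4 0.0248 as limma adjusted p), and 4 probe sets were higher and 0 lower, of which 2 are among the 4 of the fit without it: Irs1 (0.154) and Igf1 probe set 1434413_at (0.119) lost their calls and 2 other Igfbp4 probe sets gained one. All calls fell to 126 higher and 143 lower from 222 and 287. With values as deposited the median difference of all genes was 0.13, and 70.3% of calls were rises against 43.6%. The number of arrays limits the precision, and signal over background was not assessed.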

Other observations

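Besides Sesn3, a few pathway genes that did not pass had positive differences of similar size or smaller. Ddit4, an inhibitor of mTOR complex 1, differed by 0.51 (limma adjusted p = 0.148), Sesn1 by 0.40 (0.221) and Foxo1 by 0.53 (0.39). Each had n = 3 pools per genotype. For Ddit4 and Sesn1 all knockout pools lay above all wildtype pools, as in 10.5% of tested genes. The Foxo1 groups overlapped, and its difference was 0.09 and 0.69 within the array sets, brighter controls first. Related genes differed little or the other way: Foxo3 by -0.21, Foxo4 by 0.02, and Sesn2, too dim to be tested, by -0.04. With the array set as a block, where 9.44% of all tested genes were called, Ddit4 and Sesn1 passed (limma adjusted p = 0.036 and 0.048). Nedd4, a ubiquitin ligase that acts with Grb10 on the IGF1 receptor, differed by 0.27 (limma adjusted p = 0.209). Apart from Sesn3 and Grb10, the genes of this paragraph were named after their values were seen.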
